A study of Mus musculus with 4 samples.

Results

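The Pi16-type fibroblasts described here were 3659 of the 22691 cells that passed the cell filter in 4 single-cell RNA libraries of cancer-associated fibroblasts (CAF). They were chosen by the UMI counts of 10 genes of the *Pi16*-expressing universal fibroblast: *Pi16*, *Opcml*, *Inmt*, *Ace*, *Apod*, *Tek*, *Clec3b*, *Pcolce2*, *Scara5* and *Dpep1*. A cell was a member when at least 3 of these 10 rule genes had 1 or more UMIs (unique molecular identifiers, each standing for 1 captured RNA molecule), and when it had no UMI of *Ptprc*, the leukocyte marker CD45, or of *Pax3*, which marks the melanoma cells. They were compared with the 17748 other cells without *Ptprc* and *Pax3* UMIs that had at least 3 UMIs of the collagen genes *Col1a1*, *Col1a2* and *Col3a1* in sum. The mice were Cxcl13-cre-tdTomato x R26R-eGFPflox animals of host strain C57Bl/6, with the eGFP allele on a B6;129 background, and all had received 400000 B16-F1-OVA melanoma cells, a line that carries ovalbumin, by intraperitoneal injection and were harvested at day 14. Digested tumors were sorted for CD45-negative, CD31-negative cells with high podoplanin, and these were divided by fluorescence into tdTomato-neg eGFP+, tdTomato+ eGFP-neg, tdTomato+ eGFP+ and tdTomato-neg eGFP-neg populations, each sequenced as 1 library. In this model tdTomato is made while the *Cxcl13* promoter is active, and eGFP is made after Cre, driven by the same promoter, has once removed a stop sequence, so that eGFP also marks the descendants of cells that formerly used the promoter. Fibroblasts low in podoplanin were removed by the sort and were not measured. The number of mice behind each library is not given in the labels.

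Fibroblasts that express *Pi16* and *Dpt* are found in many organs, mainly in the adventitia around vessels and in the fascia, and have been called universal fibroblasts because they resemble each other across tissues and are regarded as a source of more specialised fibroblasts. They are known for the surface proteins CD34, DPP4, LY6A (Sca-1) and LY6C1, and for proteoglycans and elastic microfibrils of loose connective tissue. *Pi16* encodes a secreted peptidase inhibitor, *Clec3b* the plasminogen-binding protein tetranectin, *Pcolce2* an enhancer of procollagen cleavage, *Dpep1* a dipeptidase, *Ace* the angiotensin-converting enzyme, *Scara5* a ferritin receptor, *Inmt* an indolethylamine methyltransferase and *Opcml* a neural-type adhesion protein. *Apod* encodes a lipid carrier and *Tek* the angiopoietin receptor, which is also a marker of endothelial cells.

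The libraries held 24489 barcodes in all, with 10071954 to 90259852 UMIs per library, and 22691 barcodes had 500 to 6000 genes and at most 10% mitochondrial UMIs. Of the barcode sequences, 57 were present in more than 1 library and accounted for 114 barcodes. Pi16-type cells were shallower than the comparison cells in 3 of the 4 libraries, with a median of 4610 UMIs against 7806, so that every level below comes from cells thinned at random to 1000 UMIs each. The 3478 members and 17422 comparison cells that had at least 1000 UMIs were used, and a level is given as CPM, the UMIs of a gene per 1000000 UMIs, summed over the thinned cells, with an exact Poisson 95% interval. Intervals cover counting error only. With 1 library for each population there is no replicate, cells are not replicates, and no p-value was computed, so each ratio below is a description of these libraries. The mice were not separated by sex in the labels, and cells with *Xist* UMIs, which mark female cells, and cells with UMIs of the Y-linked genes *Ddx3y*, *Uty*, *Kdm5d* or *Eif2s3y* were present in each library. Among cells with marks of 1 sex, 77.1% of the Pi16-type cells (1436 of 1862) and 52% of the comparison cells carried *Xist* alone. By library, these shares were 78.9% and 42.9% in tdTomato-neg eGFP+, and 78.7% and 45.4% in tdTomato-neg eGFP-neg. In tdTomato+ eGFP-neg they were 65.9% and 66%. In tdTomato+ eGFP+ they were 45.5% and 65.1%, where 5 members had *Xist* alone and 6 had Y marks alone. Where members had the higher share, sex marks and the results below moved together. When only cells with *Xist* alone were compared, 480 of the 559 genes at least 2-fold higher in members remained so. Of the 402 genes at least 2-fold lower, 299 remained so. Of 154 ratios of named genes and lists past 2-fold, 7 were no longer past it in these cells. The part of the sex marks in each result was not tested further.

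Most Pi16-type cells lay outside the reporter-positive gates. There were 3206 in the tdTomato-neg eGFP-neg library, which is 29.6% of its cells (95% interval, 28.8 to 30.5) and 87.6% of all members. The share was 6.14% (5.49 to 6.84, 304 cells) in the tdTomato+ eGFP-neg library, 2.25% (1.89 to 2.65, 135 cells) in the tdTomato-neg eGFP+ library and 1.52% (0.834 to 2.54, 14 cells) in the tdTomato+ eGFP+ library. The intervals of the last 2 overlapped, and those of the tdTomato+ eGFP-neg and tdTomato-neg eGFP-neg libraries overlapped with no other. When the 10 genes were counted among 1000 UMIs of each cell, 1421 of 22058 cells had 3 or more of them, and the shares were 0.749%, 1.51%, 0.111% and 12.5% in the same libraries, with the tdTomato-neg eGFP+ library first, then tdTomato+ eGFP-neg, tdTomato+ eGFP+ and tdTomato-neg eGFP-neg. All of these 1421 cells were also members at full depth. The median depth of the members was 5175 UMIs in the tdTomato-neg eGFP+ library, 8353 in the tdTomato+ eGFP-neg library, 14824 in the tdTomato+ eGFP+ library and 4193 in the tdTomato-neg eGFP-neg library. Since the 14 members of the tdTomato+ eGFP+ library are few, ratios within a library were read in the other 3 only. Levels of these 14 members are printed below beside the others. They rest on 14000 UMIs after thinning, so that a few UMIs can set the level of a gene. The share of all tested genes without overlap between the groups was not counted, so each such statement describes only the gene or list named.

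**Figure D1:**
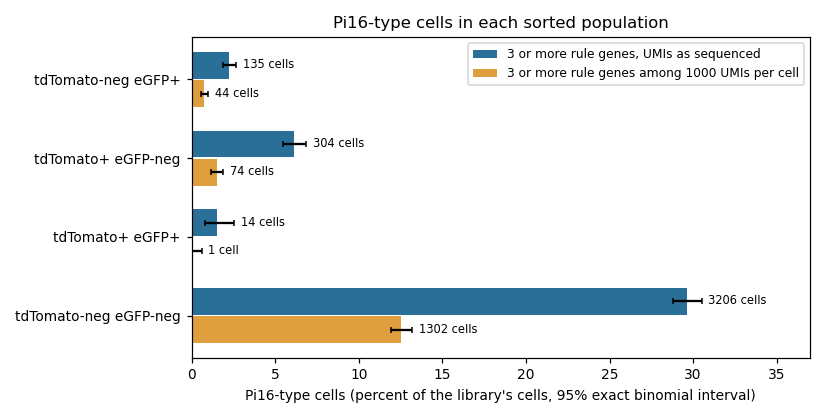
Pi16-type cells as a percentage of the cells of each sorted population (x axis), with 95% exact binomial intervals as error bars. Blue bars count the 10 rule genes in all UMIs of a cell and orange bars in 1000 UMIs of each cell, and by both counts the share was highest in the tdTomato-neg eGFP-neg library, at 29.6% and 12.5%.

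The levels of the rule genes chose the members and are given as a description. *Clec3b* was detected in 96.9% of members, *Dpep1* in 81.1%, *Pi16* in 72.3% and *Pcolce2* in 64.8%, whereas *Tek* was detected in 11.6% and *Apod* in 14.6%. At 1000 UMIs per cell, *Pi16* was detected in 36.9% of members and 0.982% of comparison cells, beside 2.55% of the *Pax3*-marked and 1.97% of the *Ptprc*-marked cells. No order is read from the last 3 shares, since comparison cells were limited to fewer than 3 rule genes and the marked cells were not, and since 53 of the *Pax3*-marked cells had at least 3 rule genes. *Clec3b* was detected in 10.2% of comparison cells and in 4.67% and 6.16% of the marked cells at this depth. Of the members, 1205 had exactly 3 rule genes, and the commonest combination among them was *Pi16* with *Clec3b* and *Dpep1* (292 cells), followed by *Clec3b* with *Pcolce2* and *Dpep1* (217 cells). There were 1012 members without a *Pi16* UMI, or 27.7%. Just inside the threshold, members with exactly 3 rule genes had 2149 CPM of the 10 genes in sum and 2676 CPM of *Gsn*, and just outside it the 1742 comparison cells with exactly 2 had 851 and 893 CPM.

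Of 8140 genes with a mean of at least 10 CPM over both groups, 559 (6.87%) were at least 2-fold higher in Pi16-type cells and 402 (4.94%) were at least 2-fold lower. The ratios are log2 values over the comparison cells, combined over libraries so that cells are only set against cells of their own library, and the median of all tested genes was 0.03. Of the 559 higher genes 523 lay in the same direction in each of the 3 libraries read, and 363 were past 2-fold in each. For the lower genes these numbers were 374 and 238. The tdTomato-neg eGFP-neg library weighed most in the counts: without it 802 genes were higher and 660 lower, with 446 of the 559 and 319 of the 402 genes among them. Without this library 445 thinned members were left in place of 3478, and 8283 genes passed the filter. The part of counting error in these larger numbers was not tested. Part of the comparison group was mesothelial: 6344 of its cells had UMIs of at least 3 of 8 mesothelial genes and 9065 had none or 1 of them. Against these 9065 unmarked cells, 386 of the higher and 247 of the lower genes remained past 2-fold.

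**Figure D2:**
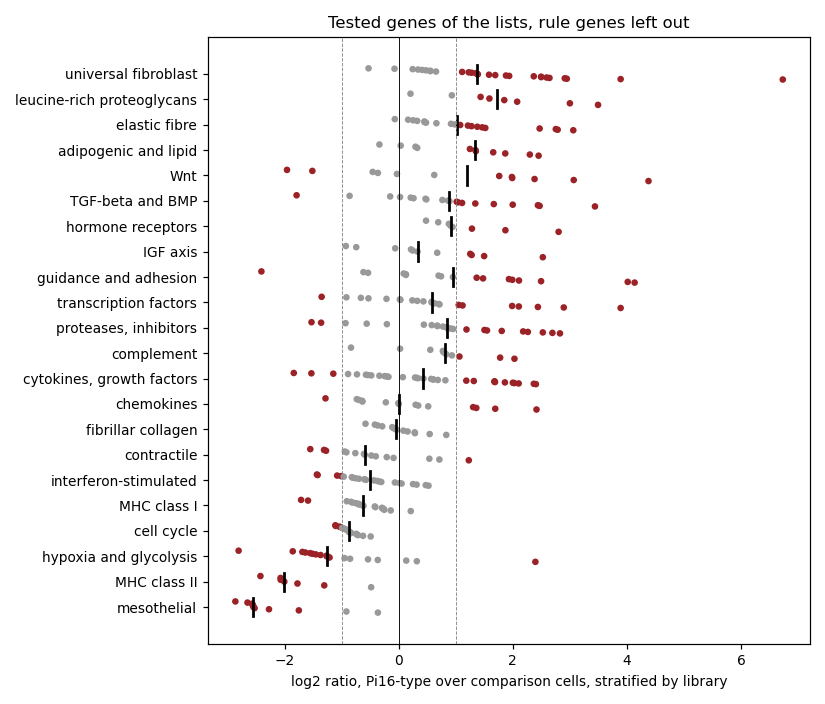
Log2 ratio of Pi16-type over comparison cells (x axis) for each tested gene of 22 gene lists (1 line per list, rule genes left out), with red points for genes at least 2-fold higher or lower, grey points for the others and black bars for list medians. Medians ran from -2.55 for mesothelial genes to 1.72 for small leucine-rich proteoglycans, with fibrillar collagen genes at -0.05.

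Outside the lists, the gene that stood out by level was *Gsn*, which encodes the actin-severing protein gelsolin. It was measured at 4505 CPM (95% interval, 4435 to 4576) in Pi16-type cells and 203 CPM (197 to 210.3) in comparison cells, a log2 ratio of 3.87. By library it was at 5569 CPM in the tdTomato-neg eGFP+ library, 2571 in the tdTomato+ eGFP-neg library, 1929 in the tdTomato+ eGFP+ library and 4663 in the tdTomato-neg eGFP-neg library, against 105, 128, 115 and 342 in the comparison cells of the same libraries. It was higher in the members of every library, and its lowest member level, 1929 CPM, was above the highest comparison level, 342 CPM. The other leading genes were less abundant. *Penk*, the precursor of enkephalin peptides, was at 204 against 7.4 CPM, log2 ratio 3.95. *Tmem100*, a membrane protein gene, was at 202 against 8.55 CPM, log2 ratio 3.68. *Pcsk6*, a proprotein convertase that activates growth factors of the TGF-beta family, was at 100 against 5.11 CPM, log2 ratio 3.79. *Chrm3*, the M3 muscarinic acetylcholine receptor, was at 70.4 against 4.08 CPM, log2 ratio 3.83. Enzyme genes formed much of the rest, at levels near the detection limit of the comparison cells. *Ces1d*, a carboxylesterase that cleaves lipids, was at 31.9 against 0.287 CPM, log2 ratio 6.20, from 111 and 5 UMIs. *Phex*, a peptidase of phosphate balance, was at 19.6 against 0.459 CPM, log2 ratio 5.14, *Cyp4b1*, a cytochrome P450, at 33.9 against 1.38 CPM, log2 ratio 3.71, and *Dio2*, the deiodinase that activates thyroid hormone, at 21.9 against 0.631 CPM, log2 ratio 3.97. *Dio2* had no UMI in the tdTomato-neg eGFP+ library in either group, and *Car8*, *Pamr1* and *Tmod2*, with log2 ratios of 4.81, 4.32 and 4.04, completed the 12 highest.

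The genes lowest in Pi16-type cells were nearly absent from them. *Nos2*, the inducible nitric oxide synthase, was at 4.6 against 57.1 CPM, log2 ratio -2.93, and *Aplp1*, a relative of the amyloid precursor protein, at 2.3 against 40.1 CPM, log2 ratio -3.63. *Ankrd1*, an ankyrin repeat gene used as a readout of YAP activity, was at 2.59 against 22.4 CPM, log2 ratio -2.93. *Cobll1*, *Rbfox1*, *Tmem151a*, *Palmd*, *Spint2*, *Clic5*, *Tesc* and *Rapgef5* had between 3.45 and 6.04 CPM in members and between 22.5 and 49.9 CPM in comparison cells. Against unmarked cells the ratio of *Nos2* was -3.31 and that of *Palmd*, a gene of the actin cytoskeleton, was -1.36.

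Genes known from universal fibroblasts, beyond those of the rule, were mostly higher. Of 29 tested list members 20 were at least 2-fold higher and none lower, with a median log2 ratio of 1.38. *Dpt*, the matrix protein dermatopontin that gives the population its second name, was at 815 CPM (95% interval, 786 to 846) in Pi16-type cells and 108 CPM (103 to 113) in comparison cells. It was at 1008 CPM in the tdTomato-neg eGFP+ library, 1173 in the tdTomato+ eGFP-neg library, 786 in the tdTomato+ eGFP+ library and 772 in the tdTomato-neg eGFP-neg library, against 41.2, 85, 94.1 and 178 in the comparison cells of the same libraries, and no level of the members overlapped with one of the comparison cells. *Ly6c1* was at 1049.7 against 133 CPM, log2 ratio 2.59, the Sca-1 gene *Ly6a* at 4531 against 1935 CPM, log2 ratio 1.11 and *Cd34* at 278 against 99.3 CPM, log2 ratio 1.39. The dipeptidyl peptidase gene *Dpp4* was at 121 against 17.3 CPM, log2 ratio 2.50, and the phospholipase gene *Pla1a* at 323 against 28.1 CPM, log2 ratio 2.95. *Tnxb*, which encodes the matrix protein tenascin X, was at 303 against 71.8 CPM, log2 ratio 1.94 and the transcription factor gene *Creb5* at 181 against 53 CPM, log2 ratio 1.88. The atypical chemokine receptor gene *Ackr3* was at 286 against 81.3 CPM, log2 ratio 1.69. Among the 9 list genes that were not past 2-fold, *Igfbp6* was at 1211 against 1003 CPM, log2 ratio 0.24, *Cd55*, a complement regulator, at 217 against 180.3 CPM, log2 ratio 0.55 and *Smpd3*, a sphingomyelinase gene, at 73 against 93.3 CPM, log2 ratio -0.53. They were at 1618, 239.8 and 201 CPM in the mesothelial-marked comparison cells and at 572, 132 and 19.7 CPM in the unmarked ones, and against unmarked cells their log2 ratios were 1.12, 1.11 and 1.53. The podoplanin gene *Pdpn*, the basis of the sort, was at 152 against 295 CPM, log2 ratio -0.75.

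The small leucine-rich proteoglycans, which bind collagen fibrils and limit their width, were among the lists furthest from the background, with 6 of 8 tested genes at least 2-fold higher and a median of 1.72. Osteoglycin, *Ogn*, was at 1048 CPM (95% interval, 1014 to 1083) in Pi16-type cells and 59.2 CPM (55.6 to 62.9) in comparison cells, with 938 CPM in the tdTomato-neg eGFP+ library, 598 in the tdTomato+ eGFP-neg library, 500 in the tdTomato+ eGFP+ library and 1099.9 in the tdTomato-neg eGFP-neg library, against 31, 30.4, 30.2 and 104 in the comparison cells of the same libraries. It too did not overlap between the groups in the 3 libraries read. *Ecm2* was at 57.8 against 4.19 CPM, log2 ratio 3.00, lumican, *Lum*, at 577 against 82.9 CPM, log2 ratio 2.08, *Podn* at 43.7 against 8.27 CPM, log2 ratio 1.85, *Aspn* at 145 against 25.5 CPM, log2 ratio 1.59 and decorin, *Dcn*, at 7759.6 against 2967 CPM, log2 ratio 1.43. Biglycan, *Bgn*, stood apart at 926 against 839 CPM, log2 ratio 0.21.

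Elastic fibre genes were also higher, with 10 of 20 tested genes past 2-fold, none lower and a median of 1.03. The sum of the list was 6162 CPM (6079.9 to 6245) in Pi16-type cells and 2686 CPM (2662 to 2711) in comparison cells. It was at 6900.0 CPM in the tdTomato-neg eGFP+ library, 6694 in the tdTomato+ eGFP-neg library, 6571 in the tdTomato+ eGFP+ library and 6076 in the tdTomato-neg eGFP-neg library, against 2313, 2816, 2720.1 and 2904 in the comparison cells of the same libraries. Each member level was more than 2-fold above its comparison level. Combined over libraries, the log2 ratio of the sum was 1.11 over all comparison cells and 0.71, which is below 2-fold, over the unmarked ones. The microfibril-associated genes led: *Ltbp1*, which tethers latent TGF-beta to microfibrils, was at 167 against 13.1 CPM, log2 ratio 3.06, and *Ltbp4*, of the same family, at 157 against 24.8 CPM, log2 ratio 2.47. The fibulin genes *Efemp1*, *Fbln5* and *Fbln1* were at 750.4 against 90.3 CPM, log2 ratio 2.79, at 70.7 against 8.21 CPM, log2 ratio 2.75 and at 229 against 73.3 CPM, log2 ratio 1.46. *Mfap5* was at 1420.1 against 375 CPM, log2 ratio 1.38. The fibrillin genes *Fbn1* and *Fbn2*, the backbone of microfibrils, were at 992 against 439 CPM, log2 ratio 1.28 and at 23.6 against 5.4 CPM, log2 ratio 1.52. Elastin itself, *Eln*, was at 125 against 108 CPM, log2 ratio 0.45, and *Mfap4* at 169 against 46.4 CPM, log2 ratio 0.92. The ratio of *Mfap4* within libraries was 4.54 in tdTomato-neg eGFP+, 3.75 in tdTomato+ eGFP-neg and 0.70 in tdTomato-neg eGFP-neg cells.

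In contrast, none of 14 tested genes of fibrillar collagen and its processing was past 2-fold, and the median was -0.05. The log2 ratio of their sum was 0.06 over all comparison cells and -0.35 over the unmarked ones. Among cells under 4000 UMIs 4 of the 14 were at least 2-fold lower and 0 higher, with a median of -0.90. At 8000 UMIs or more 1 was higher and 0 lower, with a median of 0.50. *Col1a1* was at 2616 against 4692 CPM, log2 ratio -0.58, *Col1a2* at 3490.5 against 4128 CPM, log2 ratio -0.06 and *Col3a1* at 10605 against 10218 CPM, log2 ratio 0.28. The comparison cells were required to have collagen UMIs and the members were not, and 309 members (8.44%) had fewer than 3. Among 13 other collagens only *Col14a1*, a fibril-associated collagen of loose connective tissue, was at least 2-fold higher, at 647 CPM (95% interval, 620.2 to 674) in Pi16-type cells and 41 CPM (38 to 44.1) in comparison cells and a log2 ratio of 3.37. It was at 592 CPM in the tdTomato-neg eGFP+ library, 532 in the tdTomato+ eGFP-neg library, 214 in the tdTomato+ eGFP+ library and 662 in the tdTomato-neg eGFP-neg library, against 15.6, 29.5, 36.2 and 69.5 in the comparison cells of the same libraries. *Col6a5* was lower, at 9.2 against 64.8 CPM, log2 ratio -2.36. Contractile genes tended lower, with 1 of 15 higher, 3 lower and a median of -0.60. Smooth muscle actin, *Acta2*, was at 294 against 631 CPM, log2 ratio -1.27, the tropomyosin gene *Tpm2* at 104 against 303 CPM, log2 ratio -1.31 and the actinin gene *Actn1* at 54.3 against 178 CPM, log2 ratio -1.55, whereas the myosin light chain gene *Myl9* was at 54.3 against 16.5 CPM, log2 ratio 1.23.

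Genes of TGF-beta and BMP signalling, which steers fibroblast activation, included 9 of 20 tested that were at least 2-fold higher and 1 that was lower, with a median of 0.88. Among ligands, *Gdf10* was at 61.2 against 2.81 CPM, log2 ratio 3.44, *Bmp6* at 21.3 against 2.53 CPM, log2 ratio 2.44 and *Tgfb2* at 68.4 against 36.5 CPM, log2 ratio 1.04, whereas *Inhba*, which encodes the subunit of activin A, was at 22.7 against 86 CPM, log2 ratio -1.79. Among receptors, the type II TGF-beta receptor gene *Tgfbr2* was at 271 CPM (95% interval, 254 to 289) in Pi16-type cells and 78.1 CPM (74 to 82.3) in comparison cells, a log2 ratio of 1.67, with 269 CPM in the tdTomato-neg eGFP+ library, 259 in the tdTomato+ eGFP-neg library, 214 in the tdTomato+ eGFP+ library and 273 in the tdTomato-neg eGFP-neg library, against 71.8, 73.2, 63.9 and 88 in the comparison cells of the same libraries. The activin receptor-like kinase gene *Acvrl1* was at 56.4 against 30.4 CPM, log2 ratio 1.11. Among antagonists, the chordin relative *Chrdl1* was at 19.3 against 3.62 CPM, log2 ratio 2.00 and follistatin, *Fst*, at 163 against 70.9 CPM, log2 ratio 1.02. The summed level of the list, 2675 CPM in members and 1504 CPM in comparison cells, was higher in the members of every library. Its log2 ratio was 0.89 over all comparison cells and 0.64 over the unmarked ones.

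In the Wnt list 6 of 12 tested genes were at least 2-fold higher and 2 were lower, with a median of 1.19. The secreted inhibitors *Sfrp4*, *Dkk2* and *Sfrp1* were at 168 against 6.14 CPM, log2 ratio 4.38, at 39.7 against 2.7 CPM, log2 ratio 3.07 and at 179 against 35.5 CPM, log2 ratio 1.76. *Sfrp4* was at 123 CPM in the tdTomato-neg eGFP+ library, 69.8 in the tdTomato+ eGFP-neg library, 71.4 in the tdTomato+ eGFP+ library and 179.7 in the tdTomato-neg eGFP-neg library, against 1.81, 7.67, 9.65 and 8.27 in the comparison cells of the same libraries. In the 3 libraries read, the lowest member level was above the highest comparison level. Not all genes of this kind moved together: the ligand gene *Wnt4* and the Dickkopf gene *Dkk3* were lower, at 50.3 against 249.5 CPM, log2 ratio -1.96 and at 12.1 against 39.1 CPM, log2 ratio -1.51. *Rspo3*, which encodes an R-spondin that strengthens Wnt signals, was at 96.6 against 15.2 CPM, log2 ratio 2.38, the receptor gene *Fzd4* at 50.9 against 11.9 CPM, log2 ratio 1.99 and the ligand gene *Wnt11* at 17.3 against 3.16 CPM, log2 ratio 1.98. In the insulin-like growth factor (IGF) list 4 of 11 tested genes were higher and none lower, with a median of 0.33. *Igf1* was at 1083 against 379 CPM, log2 ratio 1.25, the binding protein genes *Igfbp4* and *Igfbp5* at 1755 against 558 CPM, log2 ratio 1.50 and at 179 against 58.9 CPM, log2 ratio 1.28, and the secreted serine protease gene *Htra3* at 295 against 42.2 CPM, log2 ratio 2.53. The direction of *Igf1* turned, to -0.75, when the rule was counted in 1000 UMIs of each cell.

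Cytokines, growth factors and their receptors were divided, with 11 of 33 tested genes at least 2-fold higher, 3 lower and a median of 0.43. The higher ones included growth factors that act on epithelium and endothelium: *Fgf10* at 29.6 against 4.82 CPM, log2 ratio 2.40, *Fgf7* at 68.7 against 11.9 CPM, log2 ratio 2.03, hepatocyte growth factor, *Hgf*, at 36.8 against 6.03 CPM, log2 ratio 2.10, and the lymphangiogenic factor *Vegfd* at 225 against 55.4 CPM, log2 ratio 1.86. The interleukin-6 and leukemia inhibitory factor receptor genes *Il6ra* and *Lifr* were at 27 against 6.08 CPM, log2 ratio 2.37 and at 63.5 against 15.7 CPM, log2 ratio 2.00. The B cell survival factor gene *Tnfsf13b* was at 25 against 7.06 CPM, log2 ratio 1.68. The lower ones were *Lif* (6.04 against 19.8 CPM, log2 ratio -1.15), *Csf3* (22.1 against 72.2 CPM, log2 ratio -1.53) and *Tnfrsf11b* (49.2 against 173 CPM, log2 ratio -1.84). *Il6* and *Il33* were at 208 against 133 CPM, log2 ratio 0.82 and at 432 against 301 CPM, log2 ratio 0.69, which is below 2-fold.

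Of 15 tested chemokine and chemokine receptor genes 4 were at least 2-fold higher and 1 was lower, and the median, 0.00, was at that of all genes. Eotaxin, *Ccl11*, which attracts eosinophils, was at 825 CPM (95% interval, 795 to 856) in Pi16-type cells and 92.7 CPM (88.2 to 97.3) in comparison cells. It was at 785 CPM in the tdTomato-neg eGFP+ library, 824 in the tdTomato+ eGFP-neg library, 571 in the tdTomato+ eGFP+ library and 828 in the tdTomato-neg eGFP-neg library, against 35.2, 43.4, 38.6 and 177 in the comparison cells of the same libraries. The groups did not overlap in the 3 libraries read. *Cxcl12*, the ligand of CXCR4, was at 1043 against 371 CPM, log2 ratio 1.30, which became -0.22 when the rule was counted in 1000 UMIs of each cell, and *Ccl19*, a ligand of CCR7 on T cells and dendritic cells, at 155 against 38.5 CPM, log2 ratio 1.36, which was 0.18 among cells under 4000 UMIs. *Cxcl16* was lower, at 61.2 against 169.6 CPM, log2 ratio -1.28. *Cxcl13*, whose promoter drives the reporters, was at 308 CPM in the tdTomato-neg eGFP+ library, 3123 in the tdTomato+ eGFP-neg library, 214 in the tdTomato+ eGFP+ library and 286 in the tdTomato-neg eGFP-neg library, against 226, 2349, 1172 and 235 in the comparison cells of the same libraries. Within libraries it was 0.45, 0.41 and 0.28 on the log2 scale in the 3 libraries read, so that the members of the tdTomato+ eGFP-neg library had a level like that of its other fibroblasts, and far above that of members elsewhere. Of 11 tested complement genes 3 were higher, none was lower and the median was 0.81, with *C3*, the central component of the cascade, at 3102 against 2149 CPM, log2 ratio 0.77.

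Hormone receptor genes were few but shifted upward, with 3 of 8 tested genes at least 2-fold higher, none lower and a median of 0.92. The estrogen receptor gene *Esr1* was at 33.1 against 2.53 CPM, log2 ratio 2.80 and the orphan nuclear receptor gene *Rora* at 183 against 81.1 CPM, log2 ratio 1.28. Sex marks differed between the groups over all libraries. In members with *Xist* alone and members with Y marks alone the list summed to 1073 and 519 CPM. Members with Y marks alone were also deeper, and these sums are not limited to a range of depth. *Esr1* was at 45.6 CPM in members under 4000 UMIs and 15.4 CPM in members of 8000 UMIs or more. Without *Apod*, 7 of 11 tested genes of the adipocyte lineage and lipid handling were higher and none lower, with a median of 1.35. Lipoprotein lipase, *Lpl*, was at 717 CPM (95% interval, 689 to 745) in Pi16-type cells and 85.1 CPM (80.8 to 89.5) in comparison cells, with 746 CPM in the tdTomato-neg eGFP+ library, 1023 in the tdTomato+ eGFP-neg library, 286 in the tdTomato+ eGFP+ library and 687 in the tdTomato-neg eGFP-neg library, against 35.2, 52, 59.1 and 149.8 in the comparison cells of the same libraries. The apolipoprotein E gene *Apoe* was at 847 against 304 CPM, log2 ratio 1.66, *Fmo1* and *Fmo2*, flavin-containing monooxygenase genes, at 25.9 against 4.13 CPM, log2 ratio 2.30 and at 44 against 7.63 CPM, log2 ratio 1.87, *Cebpd* at 847 against 359.8 CPM, log2 ratio 1.25 and *Pparg*, the master regulator of fat cells, at 19.8 against 4.99 CPM, log2 ratio 1.35, which became -0.10 when the rule was counted in 1000 UMIs of each cell. Of the genes of mature adipocytes, *Adipoq* was under the filter, at 0.288 CPM in members and 0 in comparison cells.

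Of 23 tested transcription factor genes 7 were at least 2-fold higher and 1 lower, with a median of 0.58, and the 3 listed genes of the early B cell factor family, known from adipose and adventitial progenitors, were among the higher ones. *Ebf1* was at 842 CPM (95% interval, 812 to 873) in Pi16-type cells and 131 CPM (125 to 136) in comparison cells, with 1008 CPM in the tdTomato-neg eGFP+ library, 764 in the tdTomato+ eGFP-neg library, 1071 in the tdTomato+ eGFP+ library and 842 in the tdTomato-neg eGFP-neg library, against 55.3, 93.4, 103 and 219 in the comparison cells of the same libraries, and it did not overlap between the groups. *Ebf2* was at 128 against 5.11 CPM, log2 ratio 3.89 and *Ebf3* at 27.3 against 4.71 CPM, log2 ratio 1.99. *Tcf21*, a factor of visceral fibroblasts, was at 116 against 11.4 CPM, log2 ratio 2.44 and the zinc finger gene *Zbtb16* at 23.9 against 3.1 CPM, log2 ratio 2.89, whereas *Gata6*, a zinc finger factor of the GATA family, was at 49.7 against 152 CPM, log2 ratio -1.35. Without *Opcml*, 8 of 17 tested guidance and neural-type adhesion genes were higher and 1 was lower, with a median of 0.95. *Lsamp* and *Negr1*, which belong to the same adhesion family as *Opcml*, were at 19.8 against 0.861 CPM, log2 ratio 4.14 and at 31.3 against 1.26 CPM, log2 ratio 4.01. *Cadm3* was at 66.1 against 12.6 CPM, log2 ratio 2.50 and the guidance receptor gene *Robo1* at 42.8 against 7.98 CPM, log2 ratio 1.93, whereas the repellent ligand gene *Sema3a* was lower, at 10.4 against 87 CPM, log2 ratio -2.41.

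Among 24 tested proteases and inhibitors of the matrix 9 were at least 2-fold higher and 2 lower, with a median of 0.85. The aggrecanase gene *Adamts5* was at 570.4 CPM (95% interval, 546 to 596) in Pi16-type cells and 79.5 CPM (75.4 to 83.8) in comparison cells, with 677 CPM in the tdTomato-neg eGFP+ library, 525 in the tdTomato+ eGFP-neg library, 143 in the tdTomato+ eGFP+ library and 572 in the tdTomato-neg eGFP-neg library, against 89, 65.3, 70.0 and 81.9 in the comparison cells of the same libraries. *Mmp2*, a gelatinase gene, was at 279 against 41.3 CPM, log2 ratio 2.18, *Plau*, the urokinase gene, at 52.9 against 10.2 CPM, log2 ratio 2.26 and the aminopeptidase gene *Anpep* at 26.2 against 3.27 CPM, log2 ratio 2.69. The protease gene *Adamts9* was lower, at 60.7 against 220.0 CPM, log2 ratio -1.36.

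Genes of hypoxia and glycolysis were lower in Pi16-type cells. Of 19 tested genes 12 were at least 2-fold lower and 1 was higher, with a median of -1.26, and the sum of the list was 3782 CPM (3717 to 3847) in members and 8022 CPM (7980.1 to 8064) in comparison cells. It was at 3685 CPM in the tdTomato-neg eGFP+ library, 3013 in the tdTomato+ eGFP-neg library, 4357 in the tdTomato+ eGFP+ library and 3859.5 in the tdTomato-neg eGFP-neg library, against 8503, 7879, 7066 and 7839 in the comparison cells of the same libraries, and no member level reached the lowest comparison level. Members of the oxygen response and of glycolysis were both among the lower genes. *Egln3*, the oxygen sensor that is itself induced by the hypoxia-inducible factor HIF, was at 11.2 against 106 CPM, log2 ratio -2.81, and *Bnip3*, which acts in the removal of mitochondria, at 34.2 against 117 CPM, log2 ratio -1.69. The glucose transporter gene *Slc2a1* was at 26.7 against 83.4 CPM, log2 ratio -1.26, phosphoglycerate kinase, *Pgk1*, at 209 against 502 CPM, log2 ratio -1.26, *Gapdh* at 1015 against 2126 CPM, log2 ratio -1.21, pyruvate kinase, *Pkm*, at 290.1 against 879 CPM, log2 ratio -1.51 and lactate dehydrogenase, *Ldha*, at 476 against 905 CPM, log2 ratio -0.85. *Pdk1*, which diverts pyruvate from mitochondria, was at 5.46 against 20.5 CPM, log2 ratio -1.64 and the oxidase gene *Ero1a* at 45.1 against 178 CPM, log2 ratio -1.86. The exception was adrenomedullin, *Adm*, a vasodilator peptide gene that also responds to hypoxia, at 272 against 56.6 CPM, log2 ratio 2.40. *Vegfa* was at 81.1 against 161 CPM, log2 ratio -0.54. The aldolase gene of the list was not tested because its symbol stands for more than 1 gene in the files.

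ACGTG is a core sequence at which HIF binds DNA, and no other form of the core was searched. In the promoter sequences of RefSeq (build GRCm38.p6, the first start listed for each gene, 250 bases before the start), ACGTG or its reverse complement CACGT was present in 5 of the 12 hypoxia genes that were at least 2-fold lower, in 8 of the 19 list genes matched (42.1%), in 21.5% of the 298 matched genes that were lower, in 15.7% of the 407 that were higher and in 23.1% of the 6478 tested genes matched. Over all 27025 promoters it was 16.6%. The windows of *Bnip3* (chr7:138909507-138909756, minus strand) and *Pgk1* (chrX:106186850-106187099, plus strand) are shown because they hold 2 matches each, counted on both strands. Capitals mark the matches, which overlap in *Bnip3* as a palindrome and are apart in *Pgk1*. A match is a description of these letters and was not measured as a binding site.
Bnip3: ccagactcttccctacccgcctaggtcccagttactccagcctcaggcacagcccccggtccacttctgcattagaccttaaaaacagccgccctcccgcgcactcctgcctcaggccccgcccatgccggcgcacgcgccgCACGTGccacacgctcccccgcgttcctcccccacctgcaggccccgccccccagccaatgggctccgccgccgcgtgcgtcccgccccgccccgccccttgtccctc
Pgk1: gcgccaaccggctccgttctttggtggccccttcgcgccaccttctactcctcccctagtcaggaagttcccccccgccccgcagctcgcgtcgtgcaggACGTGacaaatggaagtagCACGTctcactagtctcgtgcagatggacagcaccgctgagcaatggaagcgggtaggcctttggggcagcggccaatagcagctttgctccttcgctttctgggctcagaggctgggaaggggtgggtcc

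Genes of antigen presentation were lower too. Of 7 tested genes of MHC class II 6 were at least 2-fold lower and none higher, with a median of -2.01. The invariant chain gene *Cd74* was at 415 CPM (95% interval, 394 to 437) in Pi16-type cells and 2178 CPM (2156 to 2200.0) in comparison cells, with 385 CPM in the tdTomato-neg eGFP+ library, 252 in the tdTomato+ eGFP-neg library, 857 in the tdTomato+ eGFP+ library and 431 in the tdTomato-neg eGFP-neg library, against 2239, 2030.0, 2132 and 2228 in the comparison cells of the same libraries, and was lower in the members of every library. *H2-Aa*, *H2-Ab1* and *H2-Eb1* were at 94 against 402 CPM, log2 ratio -2.01, at 96.6 against 475 CPM, log2 ratio -2.07 and at 112 against 525 CPM, log2 ratio -2.07. Of 18 genes of MHC class I, *H2-Q6* and *H2-Q7* were past 2-fold, both lower, with log2 ratios of -1.71 and -1.59, and the median was -0.63. Of 22 interferon-stimulated genes 4 were lower and none higher, with a median of -0.51. The log2 ratio of their sum was -0.37 over all comparison cells and -0.08 over the unmarked ones. At least 2-fold lower were 7 of the 22 genes among cells under 4000 UMIs and 0 among cells of 8000 UMIs or more. *Gbp2* was at 175 against 547 CPM, log2 ratio -1.44 and *Bst2* at 914 against 1904 CPM, log2 ratio -1.08. Of 18 cell cycle genes 4 were lower and none higher, with a median of -0.88, and the list summed to 977 CPM in members and 1779 in comparison cells. The log2 ratio of this sum was -0.72 in tdTomato-neg eGFP+ and -1.04 in tdTomato-neg eGFP-neg cells, but 0.12 in tdTomato+ eGFP-neg cells, where members and comparison cells were at 1668 and 1531 CPM. Of 20 immediate early and heat shock genes, which respond to tissue digestion, *Socs3* was higher (402 against 219 CPM, log2 ratio 1.05), *Ier3* and *Hspb1* were lower (537 against 1249.9 CPM, log2 ratio -1.22, and 578 against 1999 CPM, log2 ratio -1.83), and the list summed to 11475 and 11817 CPM.

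Markers of other cell types were measured in the same way. Of 11 tested mesothelial genes 9 were at least 2-fold lower, with a median of -2.55 and a sum of 373 CPM in members and 1411 in comparison cells. Against the unmarked comparison cells the log2 ratio of the sum was 0.06, and *Msln* and *Upk3b* turned direction, from -2.55 to 1.37 and from -2.65 to 1.54, since the unmarked cells were chosen to lack these genes. Of the members, 315 (8.61%) had at least 3 of the 8 mesothelial marks, and these had a median of 13488 UMIs. The endothelial markers *Pecam1*, *Cdh5* and *Kdr* were under the filter, at 0.863 against 3.33, 0.288 against 0.631 and 3.16 against 2.24 CPM. *Tie1* had no UMI in the thinned members, which allows up to 3 UMIs in 3478000. *Plvap*, *Flt1* and *Esam* of the same list were at 16.4 against 30.2, 9.78 against 36.2 and 3.74 against 19.6 CPM, and the list of 17 endothelial genes, *Tek* included, summed to 84.5 CPM in members and 102 in comparison cells. Whether members with *Tek* UMIs had endothelial RNA was not tested. The pericyte markers *Rgs5*, *Kcnj8*, *Abcc9* and *Notch3* were under the filter, at 0.575, 1.73, 1.15 and 6.9 CPM, against 1.61, 2.3, 0.976 and 4.99 CPM in comparison cells. Only *Des* of this list was tested, at 29.3 against 146 CPM, log2 ratio -1.64, and the list summed to 46.9 against 172 CPM. Of 10 Schwann cell markers 3 were tested and none was past 2-fold, with a median of -0.62, whereas the sum was 234 CPM in members and 202 in comparison cells, log2 ratio 0.25. Of 11 melanoma markers 5 were tested and *Mitf*, a transcription factor gene of melanocytes that other cells also express, was past 2-fold, at 31.6 against 14.6 CPM, log2 ratio 1.32, with -0.37 within the tdTomato+ eGFP-neg library. The list summed to 172 CPM in members against 130.0 in comparison cells, but the log2 ratio combined over libraries was -0.39. The sum was 100, 83.1, 0 and 185 CPM in the members of the 4 libraries. Leukocyte markers summed to 34.8 and 77.1 CPM. The part of free RNA and of mixed droplets in these levels was not tested.

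The Pi16-type cells were not uniform, and their expression differed with the number of UMIs of the cell before thinning. The rule counts UMIs at full depth, so that a deep cell can meet it at lower levels of the rule genes. *Pi16* was at 1200 CPM in members under 4000 UMIs and 248 CPM in members of 8000 UMIs or more, and *Clec3b* at 3410 and 488 CPM. How far the rule itself made the differences by depth was not tested. There were 877 members under 2000 UMIs, 796 from 2000 to 4000, 751 from 4000 to 8000, 891 from 8000 to 16000 and 344 at 16000 or more. Over these ranges, in this order, *Gsn* was at 10279, 7294, 2426, 793 and 523 CPM in members, whereas it was at 943, 279, 155, 101 and 69.8 CPM in comparison cells. *Gsn* was higher in the members of every range. *Dcn* was at 13615, 10823, 6017, 3786 and 2922 CPM in members and 3124, 2914, 3070.5, 3031 and 2580.5 in comparison cells, so that the difference was smallest in the deepest cells. *Efemp1* was at 1447, 1199.7, 551, 196 and 172 CPM in members. *Dpp4* was at 203, 229, 91.9, 19.1 and 34.9 CPM, against 30.9, 22, 16.6, 13.8 and 14.8 in comparison cells. Other members of the profile were held over the ranges: *Dpt* was at 784, 884, 944, 771 and 552 CPM, *Mfap5* at 1457, 1357, 1423, 1506 and 1262 CPM and the elastic fibre list at 6294, 6194, 6406, 6206 and 5174 CPM.

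Collagen had the opposite order. *Col1a1* was at 585, 1058, 2869.5, 4470.3 and 4979.7 CPM in the members from the shallowest to the deepest range and at 5041, 5120.4, 4715, 4639.5 and 4148 CPM in comparison cells. *Col3a1* was at 2503, 5317, 13723, 17435 and 14738 CPM in members, below the comparison cells under 4000 UMIs and above them in deeper cells. *Igf1* was at 188, 543, 1543, 1837 and 1183 CPM in members and 415, 433, 425, 359 and 264 in comparison cells, and crossed them in the same way. *Cxcl12* was at 432, 714, 1631, 1438 and 735 CPM and the interferon-induced chemokine gene *Cxcl9* at 73.3, 249, 921, 1605 and 1073 CPM in members. The hypoxia and MHC class II lists were below the comparison cells in every range. Ribosomal protein genes took 22.3, 21.2, 18, 17 and 17.3% of the UMIs of members over the ranges, the nuclear RNA *Malat1* was at 12050.0, 13796, 10720.0, 13724 and 15788 CPM, and the median mitochondrial share was 0.83, 0.878, 0.739, 0.859 and 0.787%. The sex marks moved with depth as well. Members with *Xist* alone and with Y marks alone numbered 214 and 3 in the shallowest range, 347 and 17, 315 and 84, 408 and 221, and 152 and 101 in the deepest, whereas *Xist* alone took 61% of singly marked comparison cells in the shallowest range and between 50.8% and 54.3% in the others. Depth, sex marks and the level of the rule genes moved together in the members.

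**Figure D3:**
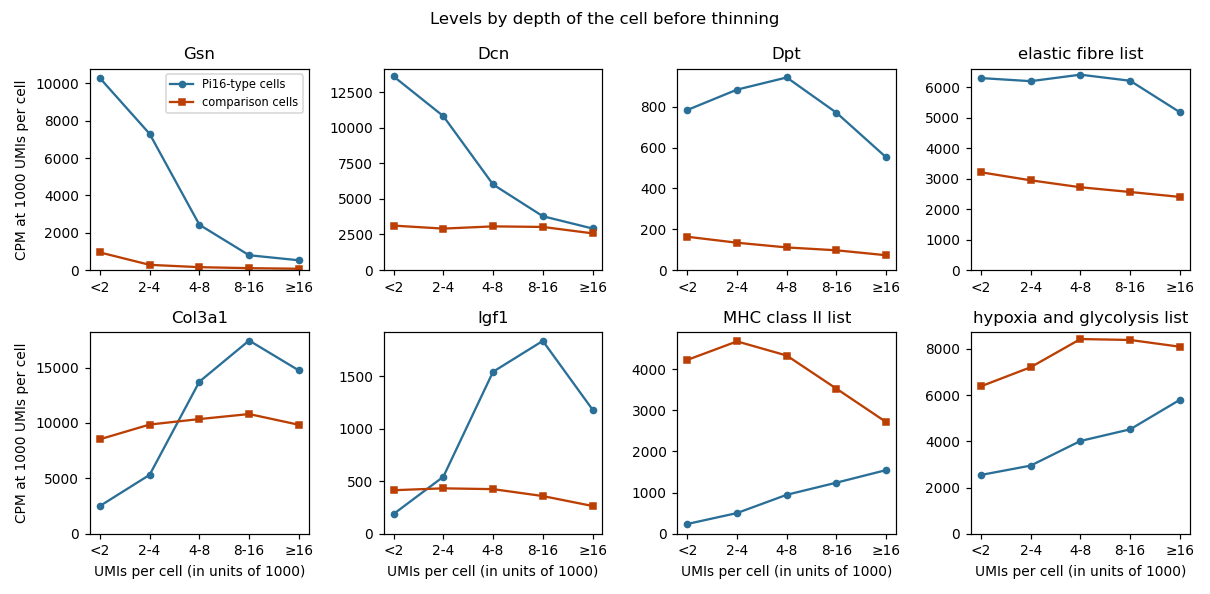
Levels in CPM at 1000 UMIs per cell (y axis, starting at 0) of 5 genes and 3 list sums against the UMIs of the cell before thinning (x axis, in units of 1000), for Pi16-type cells (blue circles) and comparison cells (orange squares). *Gsn* and *Dcn* were highest in the shallowest members, *Col3a1* and *Igf1* crossed the comparison cells, and the elastic fibre list stayed between 5174 and 6406 CPM.

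When members and comparison cells of the same range of depth were compared, the shallow and the deep members shared part of the profile. Under 4000 UMIs 7.89% of the 8140 genes were at least 2-fold higher in members and 12% lower, and at 8000 UMIs or more 6.56% were higher and 3.35% lower. In both ranges *Sfrp4* (log2 ratios 4.51 and 3.59), *Ebf2* (4.03 and 2.84), *Ltbp1* (2.65 and 2.72), *Ccl11* (2.34 and 2.21), *Dpt* (1.98 and 2.54), *Col14a1* (3.44 and 2.71) and *Lpl* (2.07 and 2.69) were higher. Past 2-fold under 4000 UMIs and not in the deep cells were *Dpp4* (2.81 and 0.43), *Anxa3*, an annexin gene of universal fibroblasts (2.27 and -0.04), *Dcn* (1.86 and 0.49) and *Adm* (3.09 and 0.33). Past 2-fold in the deep cells and not higher in the shallow ones were *Igf1* (-0.53 and 2.19), *Cxcl12* (0.01 and 2.02), *Mfap4* (-1.13 and 2.26) and *Pparg* (-0.18 and 1.94). *Ccl19* (0.18 and 2.05) and *Fbn2* (0.39 and 2.39) were past 2-fold in the deep cells and below it in the shallow ones. The universal fibroblast list had 21 of 29 genes at least 2-fold higher in shallow and 12 in deep cells, and the elastic fibre list 7 and 13 of 20. Of the contractile list 10 of 15 genes were lower in the shallow cells and none in the deep ones, and of the cell cycle list 18 of 18 and none. Of the hypoxia list 13 of 19 were lower in the shallow and 7 in the deep cells, and of the MHC class II list 6 and 5 of 7. *Col1a1* was -2.27 in shallow and 0.21 in deep cells, and *Acta2* -2.99 and -0.50.

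**Figure D4:**
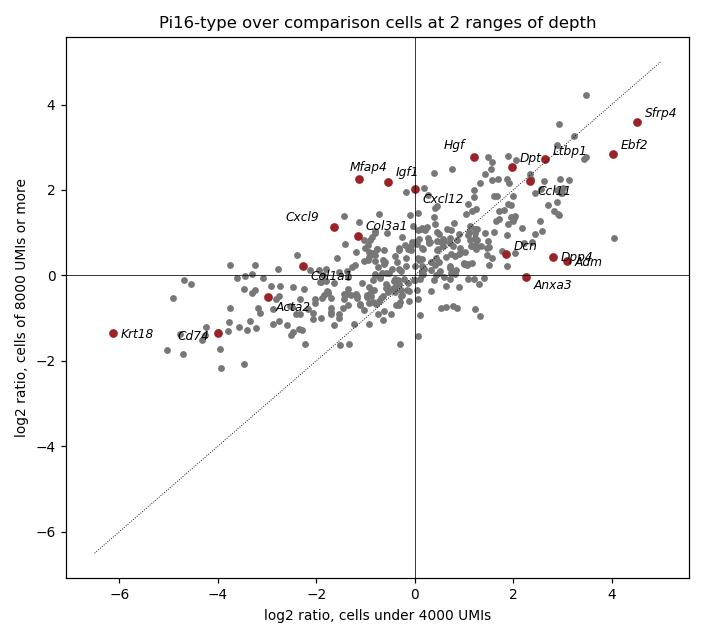
Log2 ratio of Pi16-type over comparison cells for each tested gene of the lists (points, rule genes left out), among cells under 4000 UMIs (x axis) and among cells of 8000 UMIs or more (y axis). The dotted line marks equal ratios, red points are named genes, and *Igf1* at -0.53 and 2.19 and *Dpp4* at 2.81 and 0.43 lie on opposite sides of the line.

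By the number of rule genes, which chose the members, the levels are given as a description only. Depth moved with this number, and the median was 5904 UMIs in members with 3 rule genes and 3792 in those with 7 or more. From the 1205 members with 3 rule genes to the 405 with 7 or more, *Gsn* went from 2676 to 6980.0 CPM, *Col14a1* from 293 to 1344 CPM, *Dpp4* from 34.9 to 347 CPM and the hormone receptor list from 595 to 1329 CPM. *Col3a1* went from 13815 to 4511 CPM and *Igf1* from 1394 to 352 CPM. Cells with *Xist* alone and with Y marks alone numbered 364 and 206 among members with 3 rule genes, and 265 and 6 among those with 7 or more. In members with and without a *Pi16* UMI *Gsn* was at 4402 and 4788 CPM, *Dcn* at 7664 and 8023 CPM and *Ccl11* at 831 and 809.9 CPM, and their median depths were 4609 and 4658 UMIs.

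Members with *Xist* alone and members with Y marks alone also differed at 8000 UMIs or more, for *Gsn* and collagen by less than over all depths. Depth above this limit and library were not matched. Over all depths, *Gsn* was at 4423 and 857 CPM and the fibrillar collagen list at 18339 and 41049 CPM, with median depths of 5535 and 11417 UMIs. Among the 560 and 322 such members of 8000 UMIs or more, *Gsn* was at 834 and 547 CPM, the collagen list at 29073 and 41649 CPM, and *Igf1* at 1932 and 1329 CPM. Cells of the same library and mark may come from 1 or several mice, and sex and animal cannot be told apart. Of the surface proteins known from universal fibroblasts, *Ly6c1* was past 2-fold both under 4000 UMIs and at 8000 UMIs or more (log2 ratios 2.56 and 2.02), whereas *Dpp4* (2.81 and 0.43), *Cd34* (1.76 and 0.57) and *Ly6a* (1.24 and 0.71) were past it in the shallow cells and not in the deep ones. The 1235 members of 8000 UMIs or more had fibrillar collagen genes at 33260.0 CPM, against 23378 CPM in comparison cells of that depth. These comparison cells include mesothelial-marked ones. Over all depths, the collagen list was at 23116 CPM in all comparison cells and 30483 CPM in the unmarked ones.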

How the data were processed

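The deposited data were raw UMI counts by gene and barcode, which the authors had made with Cell Ranger from 10x Chromium 3′ libraries. The headers of the count matrices name version 8.0.0, whereas the submitters' processing notes name Cell Ranger 10.0.0, STAR, Seurat 5.0 and the build GRCm39. The counts were checked to be whole numbers. The members and the gene lists were chosen with earlier results of these data known.

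Counts were read with Python 3.11.15, numpy 2.4.6, scipy 1.17.1 and pandas 2.3.3, and figures were drawn with matplotlib 3.10.9. The limits for keeping a cell were 500 to 6000 genes and a mitochondrial share of up to 10%. Doublets were not called, and the comparison was repeated without the 5% of cells with the most UMIs. Each cell was thinned without replacement to 1000 UMIs (random seed 0), which left out 181 members and 326 comparison cells. Genes with a mean of at least 10 CPM over both groups were tested against a threshold of 2-fold, on a Mantel-Haenszel ratio stratified by library. Ratios within a library were read where both groups had at least 50 thinned cells. Shares have exact Clopper-Pearson 95% intervals. Thinning, ratio and intervals were checked with simulated counts. A test between populations was not possible, since each is 1 library.

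Genes were named by rule: genes of the lists, those past 2-fold and most abundant first, up to 8 a list, and the 12 highest and 12 lowest ratios outside the lists. Some genes that the rule names are not reported here. *Pdpn*, which the sort used, and the genes whose ratio turned with depth were named after their values were seen. Alternatives were other filters, 500 UMIs or all UMIs per cell, pooled ratios, other forms of the rule, unmarked comparison cells, *Xist*-only cells, and each library left out. Cells under 4000 UMIs, cells of 8000 UMIs or more, and members without 3 mesothelial marks were added after seeing the data. Promoter sequences came from RefSeq, in which 6478 of the 8140 tested genes were matched by symbol, and their build is not that of the counts. Bulk RNA and flow cytometry were not analysed here.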

Additional observations from a re-analysis of the deposited data

Results flagged for a closer look

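Among the *Pax3*-marked cells, which were left out of both groups, 52 of 294 in the tdTomato-neg eGFP-neg library had at least 3 of the 10 rule genes, or 17.7% (95% exact interval, 13.5 to 22.5), against 0 of 95, 1 of 67 and 0 of 16 in the tdTomato-neg eGFP+, tdTomato+ eGFP-neg and tdTomato+ eGFP+ libraries. Over all libraries there were 53 such cells, their median depth was 19980.0 UMIs, and the melanoma list summed to 10453 CPM in them.

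For 4 lists the summed level in Pi16-type cells was above that of comparison cells in 1 library and below it in another, with counting intervals on opposite sides of 0, and the difference between libraries was not tested. Fibrillar collagen genes had log2 ratios of 0.42 in tdTomato-neg eGFP+, 0.38 in tdTomato+ eGFP-neg and -0.040 in tdTomato-neg eGFP-neg cells. The chemokine list was at 0.10 in tdTomato+ eGFP-neg and -0.055 in tdTomato-neg eGFP-neg cells. The melanoma list was at 1.01 in tdTomato-neg eGFP+ and -0.46 in tdTomato-neg eGFP-neg cells. The immediate early and heat shock list was at -0.30 in tdTomato+ eGFP-neg and 0.046 in tdTomato-neg eGFP-neg cells.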

How the results depend on the processing

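The share of Pi16-type cells, 16.1% of all cells, was 22.2% among *Xist*-only cells, 24.0% with at least 2 and 10.8% with at least 4 rule genes, 15.5% without *Apod* and *Tek*, 6.44% with the rule counted in 1000 UMIs and 14.8% where members also needed collagen. The 559 higher genes became 300 at a mean of at least 30 CPM and 3386 with no filter, and 545 to 802 with 1 library left out. The 402 lower genes became 185 at a mean of at least 30 CPM, 5691 with no filter, 231 on UMIs as sequenced, 745 with the rule counted in 1000 UMIs, 400 to 660 with 1 library left out (660 when it was tdTomato-neg eGFP-neg), and, with the filter applied within the range, 945 in cells under 4000 UMIs and 246 in cells of 8000 UMIs or more. Of 154 ratios of named genes and lists past 2-fold, 2630 of 2764 values under alternatives stayed past it in the same direction. The largest losses were 37 of the 154 ratios at 8000 UMIs or more, 26 against unmarked cells and 24 on UMIs as sequenced, and the other alternatives lost 0 to 8 each. The ratios that reversed were those of *Igf1* (-0.75), *Cxcl12* (-0.22) and *Pparg* (-0.10) with the rule counted in 1000 UMIs, of *Igf1* (-0.53) and *Pparg* (-0.18) under 4000 UMIs, of *Anxa3* (-0.036) at 8000 UMIs or more, and of *Msln* (1.37), *Upk3b* (1.54) and the mesothelial list (0.060) against unmarked cells. Apart from the last 3, which follow from how unmarked cells were chosen, the cause was not tested. No paired analysis was possible because each population is 1 library. The number of cells limits the tdTomato+ eGFP+ library, whose 14 members gave 14000 UMIs after thinning.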
